A study of Mus musculus with 36 samples.

Results

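Described here are 9 genes known as neural crest specifiers or as drivers of the epithelial-mesenchymal transition (EMT): Snai1, Snai2, Twist1, Twist2, Ets1, Tfap2a, Tfap2c, Foxd3 and Ngfr. They were chosen by name, with earlier results of these data known. All 9 were listed in both RNA-seq tables, which together hold 19426 genes. The study measured RNA in mouse embryonic stem cells (ESCs) and in neural stem cells (NSCs) made from them, and asked what the TET DNA dioxygenases do when neural stem cells form. The ESCs were of male V6.5 origin, a mixed 129/C57BL/6 background. Wildtype (WT) cells carried intact Tet1, Tet2 and Tet3, and triple knockout (TKO) cells were labelled as lacking all 3. ESCs were freed of feeder cells by preplating and kept on gelatin in serum with LIF for 24 hours, and NSCs were collected on day 6 after 1 passage. RNA came from 3 WT lines and 2 TKO lines in each cell type, the TKO lines being coded c2 and h7. Promoter capture Hi-C, which maps DNA fragments that contact promoters, was made in 1 WT and 1 TKO NSC library.

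Neural crest cells arise at the border of the neural plate, leave the dorsal neural tube by EMT and migrate to form peripheral neurons, glia, pigment cells and facial mesenchyme. AP-2 proteins and FoxD3 specify them, while Snail and Twist proteins repress epithelial genes such as Cdh1 by binding E-box sequences. Ets1 acts in the delamination of cranial crest, and the p75 neurotrophin receptor encoded by Ngfr is a widely used surface marker of crest stem cells. Several of these genes also work elsewhere: Foxd3 maintains pluripotent cells, and Tfap2c acts in trophoblast, in germ cells and in naive pluripotency. TET enzymes oxidise 5-methylcytosine, mostly in CG dinucleotides, and so promote demethylation of promoters and enhancers.

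The promoters of the 4 genes below are shown because they span the responses described later: Ngfr and Foxd3 had the largest differences between genotypes in NSCs, Snai1 had the most CG dinucleotides and the largest loop score, and Tfap2a did not pass the test. Each window runs from 250 bases before to 50 bases after a transcript start, is given in transcript direction from RefSeq on GRCm38.p6 (mm10), and has every CG in capitals. The RefSeq table held 7 windows for 6 of the members and none for Ets1, Tfap2c and Snai2.
Ngfr (chr11:95587649-95587948, minus strand): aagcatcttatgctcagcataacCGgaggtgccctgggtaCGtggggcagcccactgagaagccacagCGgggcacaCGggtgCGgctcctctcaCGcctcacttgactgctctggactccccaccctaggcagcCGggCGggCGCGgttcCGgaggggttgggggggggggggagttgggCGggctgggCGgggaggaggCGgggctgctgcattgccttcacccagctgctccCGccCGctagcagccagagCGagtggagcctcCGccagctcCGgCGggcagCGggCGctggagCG
Foxd3 (chr4:99656049-99656348, plus strand): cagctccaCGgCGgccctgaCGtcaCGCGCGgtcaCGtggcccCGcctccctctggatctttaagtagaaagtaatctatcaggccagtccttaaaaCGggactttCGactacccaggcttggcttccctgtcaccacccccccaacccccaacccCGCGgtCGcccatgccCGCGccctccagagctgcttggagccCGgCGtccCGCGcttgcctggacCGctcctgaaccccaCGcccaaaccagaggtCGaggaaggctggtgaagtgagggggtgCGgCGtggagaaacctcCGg
Snai1 (chr2:167537945-167538244, plus strand): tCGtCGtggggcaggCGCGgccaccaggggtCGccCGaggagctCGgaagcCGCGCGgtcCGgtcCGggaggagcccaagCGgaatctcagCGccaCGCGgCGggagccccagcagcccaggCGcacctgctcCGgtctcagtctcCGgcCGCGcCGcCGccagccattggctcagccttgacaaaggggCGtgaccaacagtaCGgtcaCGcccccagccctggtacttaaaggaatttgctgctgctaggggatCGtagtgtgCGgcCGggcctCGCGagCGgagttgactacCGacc
Tfap2a (chr13:40733746-40734045, minus strand): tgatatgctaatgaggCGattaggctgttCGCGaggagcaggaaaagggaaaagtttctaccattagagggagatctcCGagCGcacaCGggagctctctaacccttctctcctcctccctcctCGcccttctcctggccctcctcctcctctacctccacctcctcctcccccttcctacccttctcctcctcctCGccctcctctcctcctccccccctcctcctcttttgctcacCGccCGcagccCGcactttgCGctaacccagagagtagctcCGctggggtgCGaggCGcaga
The Ngfr window held 23 CG dinucleotides, the Foxd3 window 25, the Snai1 window 34 and the Tfap2a window 15. The windows of Twist1 and Twist2 held 27 and 25, and the other Tfap2a window held 11. Over the 32851 windows in the table the median was 7 and the 90th percentile was 31, so Snai1 lay above that percentile and all 7 member windows lay above the median. The E-box consensus CANNTG, searched on both strands, was present in 3 of the 7 windows, those of Ngfr, Snai1 and Foxd3, and in 72.3% of all windows. Its form CAGGTG, which Snail proteins prefer and which is one case of CANNTG, was found in the Snai1 window alone, at position -126 from the start, and in 20.2% of all windows. The AP-2 sequence GCCNNNGGC was found in the Snai1 and Twist2 windows and in 16.6% of all windows. These are letter matches in short windows, and methylation and binding at them were not analysed here.

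The libraries held 41007791 to 49060991 reads in genes. Values are the deposited normalized counts, reads divided by a size factor that equalises the libraries of one cell type, so they compare libraries for a gene and not one gene with another. All 3 Tet transcripts were lower in TKO ESCs, where Tet1 measured 9634 to 12237 in WT and 4635 to 4966 in TKO. In NSCs Tet1 and Tet3 were lower in both TKO libraries, but Tet2 overlapped, at 1066 to 1295 in WT and 1146 to 1555 in TKO. The labels do not say which exons were removed, so a gene-level count checks the knockout only in part. The labelled cell types showed their markers. Summed counts of 8 neural stem cell markers were 358731 to 371351 in WT NSCs and 181709 to 190131 in TKO NSCs, with 7 lower in TKO and none higher. Summed counts of 8 pluripotency markers were 187432 to 208548 in WT ESCs and 226811 to 255428 in TKO ESCs. Of these markers 5 were higher in TKO ESCs and none lower, beside 7.29% and 7.02% of all genes.

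In ESCs no member differed between genotypes past the threshold. A gene was called when limma's moderated test on log2(count + 1), adjusted by the Benjamini-Hochberg method over all genes with a mean of at least 10, gave an adjusted p under 0.05. None of the 9 members was called in ESCs, where 14.3% of the 17033 genes tested were called, 7.29% higher and 7.02% lower. At an unadjusted p under 0.05 there were 2, Ngfr and Tfap2c, and neither edgeR nor DESeq2 called a member. The median log2 difference of the members was 0.12, beside 0.01 for all genes tested.

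In NSCs 8 of the 9 members passed, 7 of them higher and 1 lower in TKO. Over all 17744 genes tested, 37.7% were called, 18.2% higher and 19.5% lower. Ngfr, Foxd3, Twist2, Ets1, Snai2, Snai1 and Twist1 rose, in order of size on the log2 scale, Tfap2c fell, and Tfap2a was not called. The members' median log2 difference was 1.70, beside 0.01 over all genes. Since the members were chosen with earlier results of these data known, their counts and median are a description and not a test of the group. In the 5 libraries, 7 members were higher in both TKO libraries than in any WT library, as were 30.0% of all genes, and Tfap2c was lower in both, as were 29.9% of all genes. Foxd3 reached the minimum mean only through its TKO libraries, so its presence among the genes tested already depended on the difference. With bulk RNA, fewer cells of a type and less RNA per cell cannot be told apart.

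**Figure D1:**
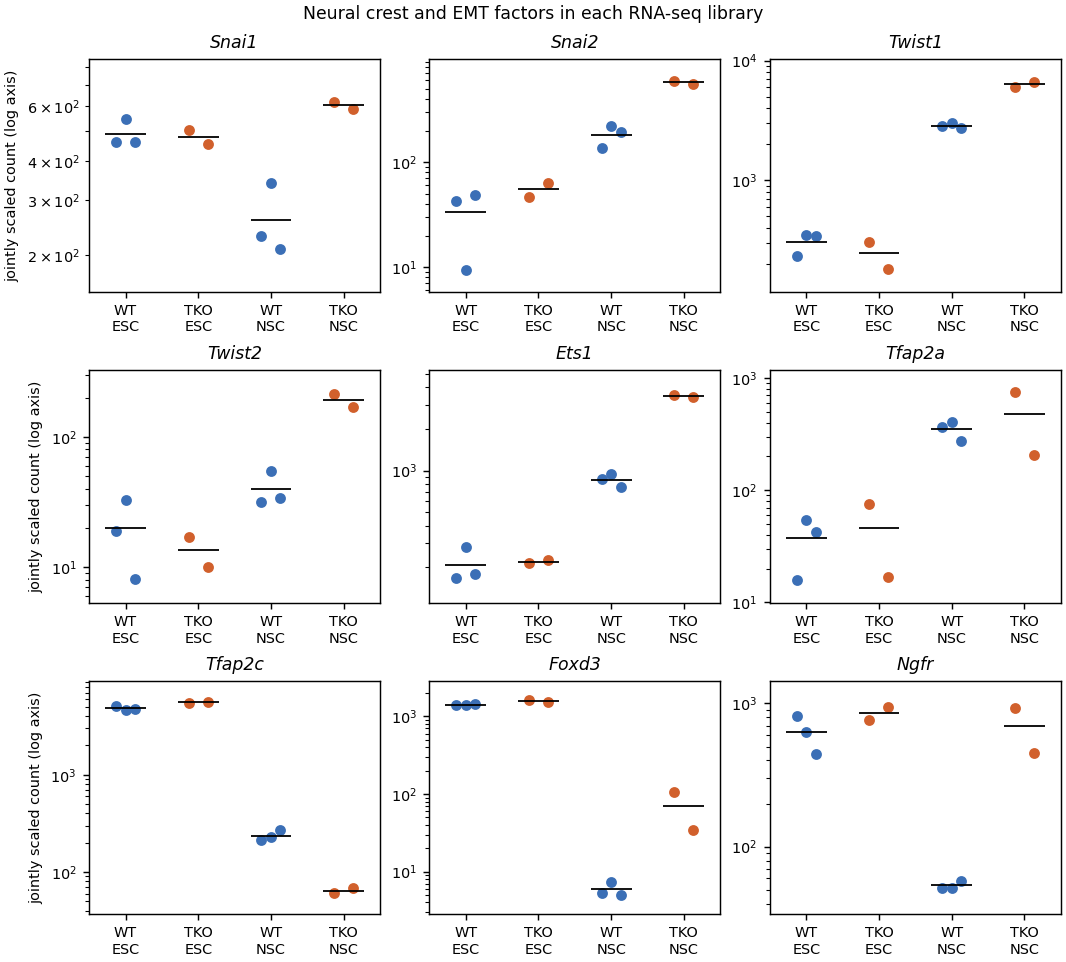
Jointly scaled counts (y axis, log scale, its range set for each gene) of the 9 factors in each of the 10 RNA-seq libraries, grouped on the x axis by genotype and cell type. Points are libraries and bars are group means. In NSCs the TKO points (orange) lie above the WT points (blue) for 7 genes, below them for Tfap2c and on both sides of them for Tfap2a.

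The Snail zinc-finger repressors were both higher in TKO NSCs. Snai1 (chr2:167538195-167542814), which represses Cdh1 at the onset of EMT, measured 269.7, 401 and 247 normalized counts in the 3 WT NSC lines and 731 and 701 in the TKO lines. Both TKO libraries lay above every WT library and close to each other. The log2 difference was 1.26 ± 0.21 (SE; adjusted p = 5.86e-04), from group means of 306 ± 83.0 (SD, n = 3) and 716 ± 21.5 (SD, n = 2). In ESCs the gene measured 393, 470.5 and 399 in WT and 431 and 392 in TKO. The ESC groups overlapped, with a log2 difference of -0.03 ± 0.18 (SE; adjusted p = 0.943).

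Snai2 (chr16:14705852-14709395), also known as Slug and expressed in premigratory crest, measured 159, 258 and 225 in WT NSCs and 708 and 664 in TKO NSCs. The groups did not overlap, and the log2 difference was 1.70 ± 0.22 (SE; adjusted p = 8.97e-05). Its ESC counts were low: WT lines gave 36.2, 8.04 and 42.3, and TKO lines 39.8 and 54.8. The ESC ranges overlapped and the estimate was wide, 0.97 ± 0.69 (SE; adjusted p = 0.395). The difference between the NSC and ESC effects, 0.74 ± 0.77, did not pass (adjusted p = 0.558), and Snai2 is the one risen gene for which the effect was not shown to differ between cell types.

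The Twist genes encode basic helix-loop-helix factors of head mesenchyme and crest. Twist1 (chr12:33957671-33959831) measured 3347, 3531 and 3199 in WT NSCs and 7150.4 and 7876 in TKO NSCs. It had the smallest rise of the 7 and one of the tightest, 1.16 ± 0.07 on the log2 scale (SE; adjusted p = 5.85e-07). In ESCs it measured 199, 297 and 295 in WT and 263 and 158 in TKO. Those ranges overlapped, and the ESC difference was -0.35 ± 0.27 (SE; adjusted p = 0.441).

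Twist2 (chr1:91801461-91848034), a close relative active in dermal and cranial mesenchyme, measured 37.2, 63.9 and 39.8 in WT NSCs and 251 and 202 in TKO NSCs. Both TKO libraries exceeded every WT library, by a ratio of group means of 4.82 and a log2 difference of 2.28 ± 0.36 (SE; adjusted p = 4.21e-04). In ESCs its range was 7.05 to 28.1 in WT, with 14.7 and 8.65 in TKO, so the groups overlapped at a level of 7 to 28 reads per library (-0.37 ± 0.89, SE; adjusted p = 0.835).

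Ets1 (chr9:32636241-32757820), an ETS-domain factor of migrating cranial crest, endothelium and lymphocytes, rose to nearly equal values in the TKO lines. It measured 1023, 1099.9 and 897 in WT NSCs and 4154 and 4075 in TKO NSCs. The TKO lines lay within 0.03 log2 units of each other with a mean 4.09 times that of WT, and the log2 difference was 2.03 ± 0.10 (SE; adjusted p = 8.54e-08). In ESCs it measured 143, 239 and 155 in WT and 182 and 196 in TKO, both TKO libraries falling inside the WT range (0.12 ± 0.28, SE; adjusted p = 0.836).

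Foxd3 (chr4:99656299-99658671), a forkhead repressor of early crest and of pluripotent cells, was nearly silent in WT NSCs, at 6.20, 8.66 and 5.83. The TKO NSC libraries measured 127 in line c2 and 41.0 in line h7. Both lay above the WT range but differed from each other by 1.61 log2 units, a gap reached by 4.70% of all genes tested. The log2 difference was 3.23 ± 0.70 (SE, adjusted p = 0.00365). Without line c2 it was 2.43 and did not pass, in a fit that kept 1 TKO library and so no spread between TKO lines. In ESCs, whose table was normalized separately, Foxd3 measured 1185, 1211 and 1231 in WT and 1401 and 1339 in TKO. There both TKO libraries were above all WT libraries, as for 21.9% of genes (21.6% were lower in both), by a log2 difference of 0.18 ± 0.12 that did not pass (SE; adjusted p = 0.357).

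The AP-2 factors did not move together. Tfap2a (chr13:40713802-40738238), an early regulator of the neural plate border, measured 427, 473 and 323 in WT NSCs, 879.8 in line c2 and 246 in line h7. One TKO line was above and the other below every WT line, and the mean difference was 0.21 ± 0.40 on the log2 scale (SE; adjusted p = 0.725). Left with line c2 alone the difference was 1.13, and left with line h7 alone it was -0.71. A fit with 1 TKO library holds no spread between TKO lines, so only the size is given. In ESCs, at 14 to 62 reads, line c2 was again the higher of the pair, at 65.0 normalized counts against 14.4 in h7 and 13.4, 46.2 and 36.2 in WT. The ESC groups overlapped, with a difference of 0.12 ± 0.72 (SE; adjusted p = 0.941). The gap between the lines, 2.10 log2 units in ESCs and 1.83 in NSCs, was reached by 2.37% and 3.53% of genes.

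Tfap2c (chr2:172545678-172558622), the AP-2 gene of trophoblast, germ cells and naive pluripotency, was the only member that fell. It measured 248, 268 and 317 in WT NSCs and 71.6 and 81.0 in TKO NSCs. Its log2 difference was -1.85 ± 0.25 (SE; adjusted p = 1.25e-04), a TKO level 0.275 of the WT mean, with both TKO libraries below every WT library. In ESCs the order was opposite, with 4329, 3967 and 4079 in WT and 4701 and 4857 in TKO. That ESC difference, 0.21 ± 0.09, did not pass (SE; adjusted p = 0.132).

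Ngfr (chr11:95568818-95587698) had the largest rise. WT NSC lines measured 59.9, 60.6 and 68.0, and TKO NSC lines measured 1105 in c2 and 539.6 in h7. The WT lines were nearly equal and both TKO lines were far above them, with a ratio of means of 13.1 and a log2 difference of 3.60 ± 0.31 (SE; adjusted p = 4.74e-06). In ESCs, where the gene was already expressed, it measured 696, 545 and 383 in WT and 656 and 822 in TKO, and the groups overlapped (0.48 ± 0.21, SE; adjusted p = 0.147). Without WT line 1 the ESC difference was 0.68 and passed, with an adjusted p of 0.0346. Ngfr lies on chromosome 11, where the median gene was 0.53 and 0.54 log2 units higher in the TKO NSC libraries than in WT, and 0.26 and 0.53 higher in the TKO ESC libraries. After each chromosome was centred on its own median, the NSC difference of Ngfr was 3.07 (adjusted p = 1.99e-05) and the ESC difference was 0.10.

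**Figure D2:**
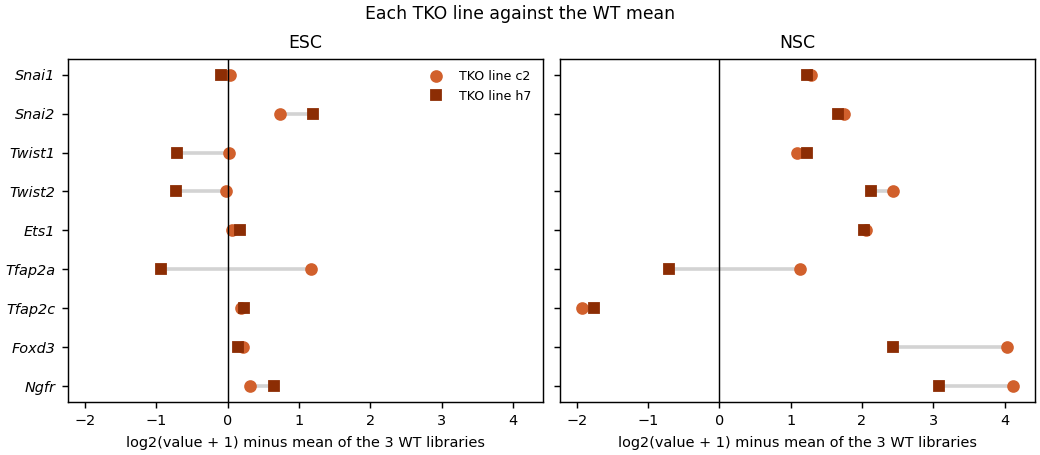
Each TKO line against the mean of the 3 WT libraries (x axis, difference on the log2(value + 1) scale) for each gene (y axis), in ESCs on the left and NSCs on the right. Circles are line c2 and squares line h7. In NSCs the lines nearly coincide for Ets1 and Snai1, stand apart for Ngfr and Foxd3, and fall on opposite sides of 0 for Tfap2a.

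Whether TET loss acted differently in the 2 cell types was tested as the difference of the TKO effects, NSC minus ESC. Of the 9 members 7 passed, 6 with a more positive effect in NSCs and 1 with a more negative one, beside 20.7% of the 15369 genes tested in both tables (10.9% positive and 9.81% negative). The differences were 3.12 ± 0.42 for Ngfr, 3.05 ± 0.54 for Foxd3 and 2.65 ± 0.83 for Twist2 on the log2 scale (SE). Foxd3 reached the minimum NSC mean only through its TKO libraries, so its place in this test already depended on the difference. They were 1.92 ± 0.28 for Ets1, 1.51 ± 0.28 for Twist1, 1.29 ± 0.29 for Snai1 and -2.06 ± 0.19 for Tfap2c. The Twist2 result was the least firm, with an adjusted p of 0.0369 that was above 0.05, and as high as 0.140, in 7 of the 10 fits that left out 1 library. Snai2 passed only without WT ESC line 2, the library with 8 reads, at 1.45 with an adjusted p of 0.0390. Tfap2a had a difference of 0.09 ± 0.92 (adjusted p = 0.963).

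**Figure D3:**
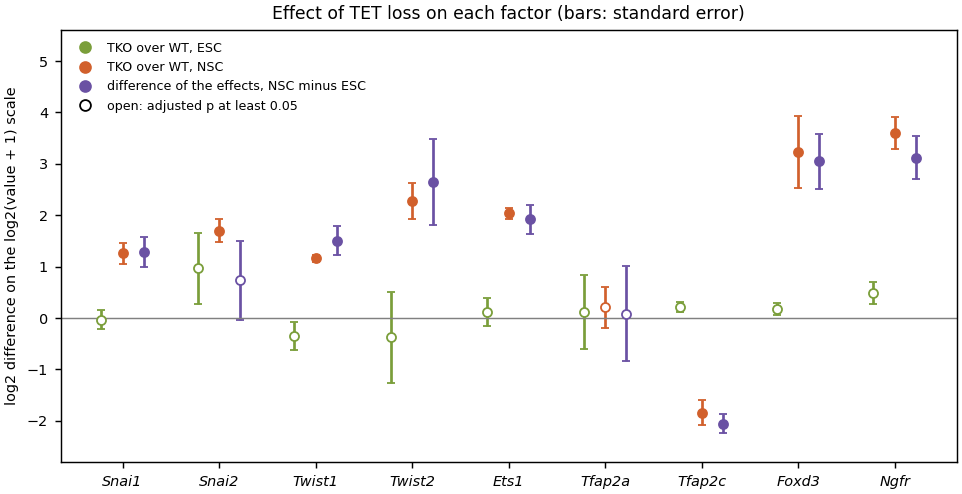
Log2 differences on the log2(value + 1) scale (y axis, with standard errors as bars) for each gene (x axis): TKO over WT in ESCs (green), TKO over WT in NSCs (orange) and the difference of these effects (purple). Open symbols have an adjusted p of at least 0.05. All green symbols are open, and 8 of the 9 orange and 7 of the 9 purple symbols are filled.

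The passage from ESC to NSC was then followed within each genotype, on reads of all 10 libraries scaled together. In WT, 8 of the 9 members passed, 4 higher and 4 lower in NSCs, beside 75.3% of all genes (37.8% higher and 37.5% lower). In TKO 7 passed, 5 higher and 2 lower, beside 70.2% of all genes (35.4% higher and 34.8% lower). Twist1 rose by 3.24 ± 0.18 in WT and by 4.74 ± 0.22 in TKO (SE, log2). Ets1 rose by 2.07 ± 0.18 in WT and by 3.98 ± 0.22 in TKO. Snai2 rose by 2.67 ± 0.49 and 3.39 ± 0.60, and Tfap2a by 3.34 ± 0.58 and 3.42 ± 0.71. Twist2 passed in TKO alone, with 3.76 ± 0.65 against 1.12 ± 0.53 in WT (adjusted p = 0.0704), a contrast between genotypes whose own test is the one given above. Without WT ESC line 2 the WT value was 1.56 and passed (adjusted p = 0.0180).

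The other 4 members were lower in NSCs than in ESCs in WT. Foxd3 fell by 7.70 ± 0.34 in WT and by 4.68 ± 0.42 in TKO, so its TKO NSC level lay between the WT NSC and the ESC levels. Tfap2c fell by 4.34 ± 0.12 in WT and by 6.41 ± 0.14 in TKO. Ngfr fell by 3.49 ± 0.27 in WT, while in TKO it changed by -0.39 ± 0.33 and did not pass (adjusted p = 0.307). Without TKO NSC line c2 the change of Ngfr in TKO was -0.91, from 1 TKO NSC library. Snai1 fell by 0.94 ± 0.19 in WT, and in TKO it changed by 0.34 ± 0.23 (adjusted p = 0.200). Scaling to equal totals raised the median gene in NSCs by 0.33 in WT and 0.39 in TKO, and moved all-gene calls from 5815 higher and 5769 lower to 7208 and 4544 in WT, and from 5439 and 5359 to 7069 and 3859 in TKO. Under that scaling Ngfr in TKO changed by 0.01, Snai1 in TKO passed at 0.73 (adjusted p = 0.00936) and Twist2 in WT passed at 1.43 (adjusted p = 0.0234).

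The order of the 4 groups differed among the members. Ets1, Tfap2a and Snai2 ran from WT ESC through TKO ESC and WT NSC to TKO NSC, and Twist1 and Twist2 ran the same way with the ESC groups exchanged. The 2 ESC groups overlapped for these 5 genes. WT and TKO NSCs also overlapped for Tfap2a, and WT ESC and WT NSC overlapped for Twist2. Snai1 was lowest in WT NSCs and highest in TKO NSCs, with overlapping ESC groups between them. Ngfr was lowest in WT NSCs, and the other 3 groups overlapped with their neighbours in the order WT ESC, TKO NSC, TKO ESC. Tfap2c and Foxd3 had no overlap between neighbouring groups, Tfap2c running upward from TKO NSC and Foxd3 from WT NSC. The share of all genes without such overlap was not counted.

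For each member, the 3 genes with the closest profile were found among 15369 genes, by the root mean square difference of mean-centred log2 values over the 10 libraries. Every member varied by more than 1 log2 unit between group means. Closest to Snai1 were Ror2 (0.14), Rmdn2 (0.15) and Sema3e (0.19), and closest to Ets1 was Igfbp4 (0.15), followed by Cd248 (0.32) and Anxa1 (0.32). Twist1 was nearest to Maged2 (0.23), Synpo (0.24) and Zadh2 (0.29). Twist2 was nearest to Fhl2 (0.37), Itga1 (0.45) and Pgf (0.46), and Snai2 to Mfap4 (0.37), Podn (0.46) and Itpr2 (0.49). Foxd3 was nearest to the pluripotency genes Lin28a (0.33), Sall4 (0.34) and Pou5f1 (0.34). The remaining matches were looser, with Cd38 (0.41), Vwa2 (0.45) and Tmco4 (0.49) for Ngfr, Vwf (0.50), Septin1 (0.57) and Fabp3 (0.58) for Tfap2c, and Rprm (0.55), Trim7 (0.55) and Gm49327 (0.56) for Tfap2a. No member was among the 3 nearest genes of another.

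Other genes of the crest program did not share one direction in NSCs. Of 18 tested among 21 other crest genes, 5 were higher and 5 lower in TKO, and Pax7, Sox10 and Cdh19 were not tested. Over all genes tested, 18.2% were higher and 19.5% lower in TKO NSCs, and 7.29% and 7.02% in TKO ESCs. These shares belong beside every list count below, and no list was tested as a set. Mitf, the pigment cell regulator, rose by 3.84 ± 0.30 (SE, log2), the crest integrin Itga4 by 2.31 ± 0.24, Dlx5 by 1.77 ± 0.31 and the neuregulin receptor Erbb3 by 1.34 ± 0.41. The neural plate border genes Msx1, Zic1 and Msx2 fell by 4.89 ± 0.21, 1.97 ± 0.10 and 1.36 ± 0.40, and the endothelin receptor Ednrb fell by 2.22 ± 0.22. In ESCs 2 of 13 were higher and none lower, Ret by 1.22 ± 0.31 and Erbb3 by 1.05 ± 0.11. Mitf, Dlx5 and Ret lie on chromosome 6. In its distal part the median gene was 0.31 and 0.36 log2 units higher in the TKO NSC libraries than in WT. In the TKO ESC libraries that median was 0.40 and 0.31 higher. Where each gene lies on the chromosome was not examined, and the part of that shift in their changes was not tested. Sox10, the defining factor of migrating crest and its glial and pigment derivatives, was listed in neither table.

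Among other transcription factors linked to EMT, more rose than fell. Of 9 tested, 4 were higher, Gsc by 2.32 ± 0.61, Foxc1 by 1.81 ± 0.15, Foxc2 by 1.78 ± 0.46 and Zeb2 by 0.29 ± 0.10, and Tcf4 was lower by a log2 change of -0.20 ± 0.07. In ESCs Gsc was the only one called, and it fell by 1.78 ± 0.55. Of 14 epithelial genes tested in NSCs 9 were higher, 2 lower and 3 not called, beside 18.2% higher and 19.5% lower over all genes; the list itself was not tested. Grhl2, an activator of epithelial genes, rose by 3.40 ± 1.14, E-cadherin (Cdh1) by 3.10 ± 0.29, Cldn7 by 2.66 ± 0.42 and Krt8 by 2.19 ± 0.20, while Cldn3 fell by 3.86 ± 0.27 and Tjp3 by 1.02 ± 0.19. Cdh1, a target that Snail and Twist factors repress, was thus higher in the same libraries as Snai1, Snai2, Twist1 and Twist2.

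Mesenchymal genes were split, with 5 of 12 higher and 4 lower in TKO NSCs. Osteopontin (Spp1) rose by 1.63 ± 0.31, Tgfbi by 1.05 ± 0.13, fibronectin (Fn1) by 0.64 ± 0.10 and Mmp14 by 0.43 ± 0.09. The smooth muscle actin Acta2 fell by 3.36 ± 0.17, vimentin (Vim) by 0.87 ± 0.06, N-cadherin (Cdh2) by 0.84 ± 0.06 and Sparc by 0.53 ± 0.09. Vim and Cdh2 are also abundant in neural stem cells. In ESCs 2 of 12 mesenchymal genes were higher and 2 lower, and 6 of 16 epithelial genes were lower with none higher, among them Krt8, which fell by 1.01 ± 0.16. Among these genes Cdh1 lies on chromosome 8, where the median gene was 0.39 and 0.41 log2 units lower in the TKO ESC libraries than in WT. Sparc lies on chromosome 11, where the median gene was 0.26 and 0.53 higher. The part of these shifts in the ESC counts was not tested.

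Most called genes of the neurotrophin system fell where Ngfr rose. Of 13 neurotrophin genes tested in NSCs, 8 were lower, beside 19.5% of all genes. The TrkB receptor Ntrk2 fell by 2.38 ± 0.23 and the sortilin-family receptors Sorcs3, Sorcs2 and Sorcs1 fell by 3.25 ± 0.30, 1.89 ± 0.16 and 1.14 ± 0.09. In ESCs none of 10 was called by limma, and 1 had an unadjusted p under 0.05. Among other AP-2 genes and partners, 2 of 5 were higher, Cited2 by 0.90 ± 0.09 and Kctd15 by 0.31 ± 0.11. Of 6 other ETS genes 4 were higher and none lower, led by Fli1 at 1.73 ± 0.26 and Etv4 at 0.79 ± 0.08. Etv4 lies on chromosome 11, as do Cldn7 and Sparc above, where the median gene was 0.53 and 0.54 log2 units higher in the TKO NSC libraries. The part of that shift in their changes was not tested. Of 6 other Fox genes 2 were higher, Foxh1 by 2.16 ± 0.52 and Foxd1 by 0.89 ± 0.09, and Foxo1 was lower by 0.81 ± 0.10. In ESCs limma called none of 5 AP-2 and none of 4 Fox genes, of which 1 and 2 had an unadjusted p under 0.05. Of 5 ETS genes tested in ESCs, Etv5 was higher by 0.50 ± 0.07 and Etv1 lower by 0.68 ± 0.16.

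Markers of other cell types moved in the same NSC libraries. Summed counts of 9 fibroblast and feeder markers, led by Col3a1, were 56365 to 72881 in WT and 125742 to 149855 in TKO, with 6 higher and 2 lower, and none was at 0. This concerns Snai1, Snai2, Twist1 and Twist2, which fibroblasts express. The 8 pluripotency markers, led by Pou5f1, summed to 1155 to 1362 in WT and 3165 to 5950 in TKO, with 5 higher and none lower, beside the rise of Foxd3. Mesoderm markers summed to 934 to 1097 in WT and 3262 to 4223 in TKO, with 3 of the 7 listed higher and none lower, and Mesp1 and Msgn1 were not listed. The part of these cell types in the members' differences was not tested.

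Markers of crest derivatives were listed only in part. Of 8 Schwann cell and melanoblast markers 5 were listed, with sums of 438 to 502 in WT and 1123 to 1258 in TKO and 2 higher, while the defining genes Sox10, Dct and Tyr were not listed. Surface ectoderm markers, relevant to Tfap2a, summed to 1420 to 1901 in WT and 2871 to 4269 in TKO, with 5 of 7 higher, Krt5 not listed, and Krt14 and Krt15 at 0 in at least 1 library. Endothelial and blood markers, relevant to Ets1, overlapped at 2188 to 2762 and 2667 to 2926, with 4 of 6 higher and 1 lower, and Tie1 and Ptprc were not listed. For Tfap2c, trophoblast markers overlapped, at 437 to 569 in WT and 567 to 899 in TKO with 4 of 7 higher. Cdx2 and Plet1 were at 0 in at least 1 library. Germ cell markers also overlapped, at 620 to 868 and 581 to 673 with 1 of 5 higher. Prdm14, Dppa3 and Dazl were not listed. The part of these cell types in the results was likewise not tested. In ESCs limma called none of the 9 fibroblast markers, and none had an unadjusted p under 0.05.

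Promoter contacts were read from the authors' loop lists, in which each loop joins 2 DNA fragments on mm10 and carries the authors' score of at least 5. A loop was assigned to a member when one of its fragments held an end of the gene. The members had 24 loops in WT and 25 in TKO, 6 of them present in both. The share of all listed loops present in both genotypes was not counted, so the sharing given here and below is a description only. With 1 library per genotype there is no test. In TKO, 3 members had more loops, 5 had fewer and Snai2 had as many, while of all 14514 genes with a loop 37.6% had more and 48.2% fewer.

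Of the members higher in TKO NSCs, Ngfr, Twist1 and Twist2 had loops in TKO alone. Snai1, Foxd3 and Ets1 had fewer loops in TKO than in WT, and Snai2 had as many. The share of all genes with loops in TKO alone was not counted. Ngfr had none in WT and 8 in TKO, reaching 56.0 to 222 kb to either side, with partners that included fragments at Spop and Zfp652. Its highest score was 7.44, at 82.9 kb, and none reached 10. The total of loops on chromosome 11 was 5031 in WT and 8200 in TKO, a ratio of 1.63 beside 0.983 over the genome, and 70.8% of genes on that chromosome had more loops in TKO. Over the genome, 5 of the 14514 genes with a loop had 0 in WT and at least 8 in TKO. That cutoff of 8 was taken from Ngfr itself, and genes of chromosome 11 were not counted apart. The part of the chromosome in the Ngfr loops was not tested. Twist1 had 2 TKO loops, at 504 kb with a score of 11.6 and at 474 kb with a score of 6.04. Twist2 had 2 close to the minimum score, 5.02 at 142 kb and 5.31 at 155 kb.

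Snai1 had 8 loops in WT and 5 in TKO with 3 shared, counted over 2 fragments where the other members had 1. All 8 WT partners lay 57.3 to 152 kb downstream, toward Ube2v1 and Cebpb. The strongest was shared, at 67.6 kb, with a score of 17.8 in WT and 15.2 in TKO. TKO had 2 of its own, farther away at 318 and 539 kb. The loop at 539 kb, reaching Pard6b, came from the fragment that holds the 3′ end of Snai1 and not its promoter. Snai1 thus had fewer listed loops in the genotype where its RNA was higher.

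Snai2 had 4 loops in each genotype but shared only that at 933 kb, a fragment at Mcm4 and Prkdc with scores of 10.64 in WT and 12.35 in TKO. Foxd3 had 4 loops in WT and 2 in TKO, sharing one at 170 kb to a fragment at Efcab7 and Itgb3bp. Ets1 had 2 in WT and 1 in TKO, the shared loop lying at 308 kb with scores of 5.63 and 5.89. Tfap2c, the member that fell, had 5 loops in WT, 213 to 625 kb away, and 1 in TKO at 276 kb, none shared. Tfap2a had 1 loop in WT, at 1788 kb, and none in TKO. Its fragment held the far 5′ end of the gene and not the 2 promoter windows of RefSeq.

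**Figure D4:**
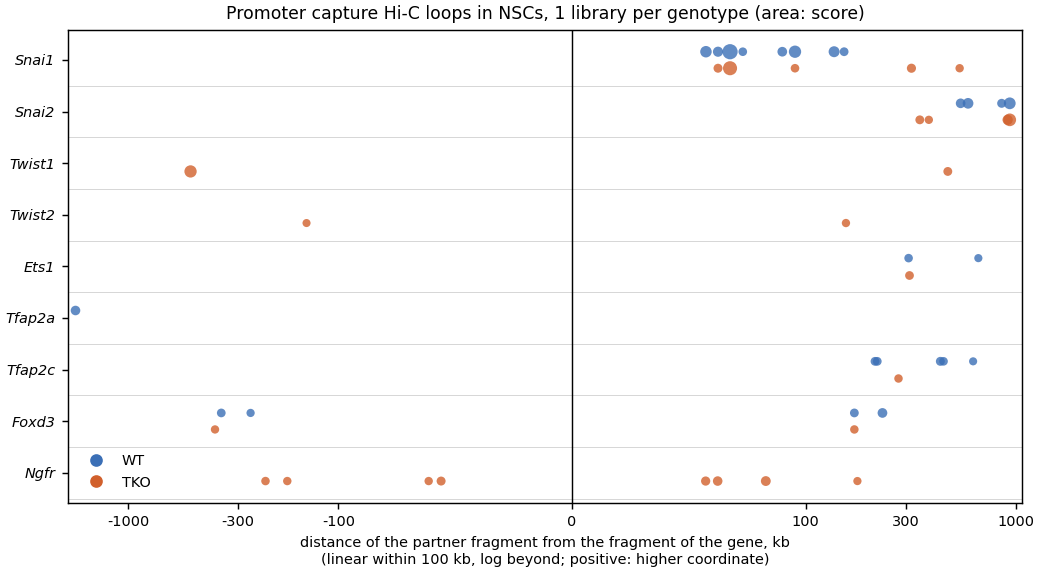
Loops of each member (y axis) by the distance of the partner fragment (x axis, kb, linear within 100 kb and log beyond, positive toward higher coordinates), WT in blue and TKO in orange, with point area proportional to the authors' score. The 8 Ngfr loops are orange only, and the largest points are the shared Snai1 loop at 67.6 kb.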

How the data were processed

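RNA-seq was made in 10 libraries, and promoter capture Hi-C in 2; the other assays of the series were not used here. Per the file headers and labels, the deposited RNA values are signal: read counts the authors divided by DESeq2 size factors, 1 table per cell type. The submitters' processing notes name STAR 2.7.3a, featureCounts, DESeq2 1.40.2 and mm10. Whole reads were recovered for 100% of values (tolerance 1e-04); between 75.2% and 82.7% of values up to 20 were even. The deposited loop score is the authors' own, and its caller was not given in the sources used here.

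Values were tested as log2(value + 1) with limma 3.58.1 (R 4.3.3, trend, two-sided), genes with a mean of at least 10, Benjamini-Hochberg adjustment and a threshold of 0.05. NSC against ESC was fitted on recovered reads scaled jointly by the median of ratios. Alternatives were a pseudocount of 5, no filter, edgeR 4.0.16, DESeq2 1.42.0, equal totals, centred chromosomes, robust fitting, a replicate block, each library left out, and for loops a score of at least 10, any overlap with the gene, and every listed line. The script was tested on simulated data. Per the labels, the line codes of WT and TKO recur under the same replicate numbers in ESC and NSC, so the numbers pair the cell types by line, but not WT with TKO. Deviations of same-numbered libraries correlated between -0.03 and 0.03 over 15381 genes.

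The members and gene lists were chosen with earlier results of these data known. All 9 members and Tet1 to Tet3 were named; from each list at most the 4 largest called changes per direction were named. A gene of the neurotrophin list is not reported here. Of the gene names, 17657 matched RefSeq by symbol, 69 by synonym and 1700 not at all. Precision is limited by 3 WT and 2 TKO lines.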

Additional observations from a re-analysis of the deposited data

Results flagged for a closer look

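For 7 members the effect of TET loss differed between NSCs and ESCs by a test of the difference itself (limma, adjusted over 15369 genes). Ngfr had a difference of 3.12 (adjusted p = 1.59e-04), Foxd3 of 3.05 (adjusted p = 0.00121), Twist2 of 2.65 (adjusted p = 0.0369) and Ets1 of 1.92 (adjusted p = 2.86e-04) on the log2 scale. Twist1 had a difference of 1.51 (adjusted p = 0.00186), Snai1 of 1.29 (adjusted p = 0.00663) and Tfap2c of -2.06 (adjusted p = 5.15e-06), the one negative value. Foxd3 reached the minimum NSC mean only through its TKO libraries, so its presence among the genes tested depended on the difference. With chromosomes centred on their medians the same number of members, 7, passed. Groups of 3 and 2 libraries are too small for a gap test of single libraries, and none was made.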

How the results depend on the processing

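With single libraries left out, 0 to 1 members passed in ESCs, 7 to 9 in NSCs and 6 to 7 for the difference of the effects, and 8 to 9 in WT and 7 to 8 in TKO for NSC against ESC. The 1 in ESCs was Ngfr. Fits that left out a TKO line kept 1 TKO library of that cell type, so their calls held no spread between TKO lines there. With a replicate block the counts were 0, 8, 7, 8 and 7, as without it, and no member's call changed, also for NSC against ESC, where the labels pair libraries by line code. Signs that reversed when a library was left out belonged to values that did not pass. In ESCs these ranged from -0.93 to 1.17 for Tfap2a, from -0.027 to 0.34 for Ets1, from -0.71 to 0.020 for Twist1, from -0.87 to 0.063 for Twist2 and from -0.10 to 0.054 for Snai1. Tfap2a ranged from -0.71 to 1.13 in NSCs and from -0.96 to 1.14 for the difference of the effects. Ngfr in TKO, NSC against ESC, ranged from -0.91 to 0.13 and was 0.0061 with equal totals. The cause was not tested. Over all genes, calls in ESCs went from 2437 to 1108 without TKO ESC line h7, and calls for the difference went from 3177 to 2096 without TKO NSC line c2. Asking for a score of at least 10 left 4 of 24 member loops in WT and 3 of 25 in TKO. DESeq2 gave no adjusted p for Twist2 in ESCs. Low ESC counts limit Twist2, Snai2 and Tfap2a, and each value rests on 3 WT and 2 TKO lines.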
